A study of Mus musculus with 10 samples.

Results

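The transcriptome was described in 5 clones of immortalized mouse embryonic fibroblasts with a low share of mutant mitochondrial DNA, which gave 5 of the 10 libraries of the study. The members are the libraries labelled low heteroplasmy, and every gene with a mean of at least 5 CPM over them (counts scaled to a library total of 1000000) was kept, which left 10220 of 26401 genes. Embryonic fibroblasts are connective tissue cells grown from embryos, and heteroplasmy means that the many copies of mitochondrial DNA in a cell are not all alike. All clones of the study, those with a high mutant share included, carry the same C-to-T change at position 5024 of mitochondrial DNA, in mt-Ta, the gene of the mitochondrial alanine tRNA. They come from embryos, have C57Bl/6N as their labelled strain, had no treatment and grew in high-glucose DMEM with serum and uridine. The 5 clones are called low 1 to low 5 by their replicate numbers, and each list of values below runs in that order. The sources used here give neither the mutant share of each clone nor how clones were derived and cells immortalized. Each clone gave 1 library, so no difference between clones has a replicate check, no p-value is given, and the clone, its culture and its library preparation cannot be told apart. High and low clones were not tested against each other.

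Fibroblasts make the collagens and glycoproteins of connective tissue, and the position in the body from which they came is recorded in their homeobox transcription factors. They are also sentinels of infection: they sense foreign or misplaced nucleic acids, secrete type I interferon and chemokines, and respond to interferon with a large set of antiviral genes.

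The libraries held 17318372, 18748605, 22187910, 24967748 and 18925366 counts on genes, and between 17663 and 18429 genes were detected in each. A floor of 3 counts corresponded to between 0.120 and 0.173 CPM. The kept genes held between 99.2% and 99.4% of the counts of a library. The label fibroblast was set beside 18 marker genes, of which 12 were kept: Col1a1 (3289 to 5634 CPM), Vim (5068 to 6678 CPM), Fn1 (977 to 1782 CPM), Prrx1 (130.3 to 198 CPM), Ddr2 (149 to 198 CPM) and Twist1 (36.0 to 63.9 CPM) were present in every clone. The 6 markers under the filter were Thy1 (0 to 0.320 CPM), Fap (0 to 0.561 CPM), Lum (0 to 0.0533 CPM) and Postn (0 to 0.0528 CPM), which were at or near 0, and Dcn (0.476 to 3.47 CPM) and Pdgfra (2.06 to 8.92 CPM), which were low. Msln (616 to 985 CPM) and Krt19 (434 to 638 CPM), markers of mesothelium and of simple epithelia, were high in all 5 clones, while Epcam (0.270 to 2.14 CPM), Cdh1 (0.211 to 3.81 CPM) were under the 5 CPM filter and the mesothelial genes Upk1b and Lrrn4 were at 0. In the epithelial list 3 markers reached 5 CPM in at least 1 clone and 2 were kept. The kept ones were Krt19 and 1 other with a 133-fold range, highest in low 1 and lowest in low 3. The mesothelial list had no kept marker besides Msln and Krt19. Summed over their lists, endothelial markers reached 0.687 to 2.003 CPM, skeletal muscle markers 2.19 to 3.98 CPM and hepatocyte markers 0 to 0.213 CPM. Other sums were higher: pericyte and smooth muscle 99.3 to 197 CPM, neuron 33.2 to 91.7 CPM, glia and neural crest 30.7 to 60.7 CPM. Osteoblast markers reached 22.3 to 40.9 CPM, chondrocyte markers 7.77 to 25.3 CPM and adipocyte markers 12.3 to 23.7 CPM. Blood cell and macrophage markers reached 15.1 to 32.9 CPM, although the blood cell gene Ptprc was at 0 in every library. Xist was at or under 0.12 CPM in all 5 clones and the Y-linked genes Ddx3y (52.2 to 162 CPM) and Eif2s3y (49.8 to 189.7 CPM) were present in all 5. Low 2, and to a lesser degree low 3, stood apart in ribosomal RNA-like transcripts, described with their values further down.

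Most of the transcriptome was alike among the 5 clones. The median gene differed 1.60-fold between its highest and its lowest clone, and 75.1% of the kept genes stayed within 2-fold. A range of at least 4-fold, with the lowest value raised to 3 counts, was found for 604 genes (5.91% of 10220), which are called variable here. Of these, 96.5% were protein coding, beside 97.8% of all kept genes, and 73 had a clone under 1 CPM. Low 5 held the lowest value in 271 of the variable genes (44.9%), although it was lowest in 21.4% of all kept genes, and the highest value in 71. Low 1 was highest in 172 of the variable genes and low 4 in 163. Over all kept genes, low 1 to low 5 were highest in 24.8%, 16.9%, 16.9%, 20.5% and 20.8%. They were lowest in 16.6%, 16.7%, 20.7%, 24.6% and 21.4%. The least different pair, low 2 and low 3, differed at least 4-fold in 90 genes (0.881%), and the most different, low 3 and low 5, in 285 (2.79%). Low 1 differed by as much from low 2, low 3, low 4 and low 5 in 1.41%, 1.97%, 1.88% and 1.64% of the genes, and low 4 from low 2, low 3 and low 5 in 1.57%, 1.38% and 2.32%. Low 2 and low 5 differed in 2.19%. As a check for a library deposited more than once, the chi-square statistic of the counts of each pair was between 97.9 and 212 times its degrees of freedom, a measure that covers counting error only. On the first principal component of log2(CPM + 1), which held 38.1% of the variance, low 5 lay at one end and low 3 at the other, and 26 of the 50 genes with the largest weight were interferon-stimulated genes. The second component (28.8%) set low 4 apart, with 4 of its 50 leading genes from that list. Nearest the filter, Ramp2 (mean 5.00 CPM) and Dhh (5.01 CPM) were kept, and Fbxl16 and 2010204K13Rik (both 4.99 CPM) were not.

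The 604 variable genes were set against 51 lists of genes with a shared role, and 171 of them belonged to at least 1 list. A list with at least 5 kept members was called variable where its share of variable genes was at least 2 times that of all kept genes, and even where it had 0. By this rule 26 lists were variable, 6 lay between, 15 were even and 4 had too few kept members. In a list of 5 kept members 1 variable gene was enough, as for cartilage and bone genes. Some variable lists had exact 95% intervals that included 5.91%, such as integrins (2.28% to 51.8%) and ATF4 genes (4.67% to 29.5%). The same held for the contractile, glutathione transferase, patterning homeobox, helix-loop-helix, semaphorin, keratin, cartilage and bone, and germline lists. All these intervals take the members of a list as independent. The lists with the largest shares were interferon-stimulated genes (44 of 48, 91.7%), MHC class I antigen presentation (14 of 18, 77.8%), complement (3 of 5), chemokines and cytokines (8 of 14, 57.1%) and imprinted genes (5 of 11, 45.5%). Cytosolic ribosomal proteins (0 of 78), mitochondrial ribosomal proteins (0 of 77), DNA replication and mitosis (0 of 40) and the nuclear subunits of complex I (0 of 36) were at the other end.

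**Figure D1:**
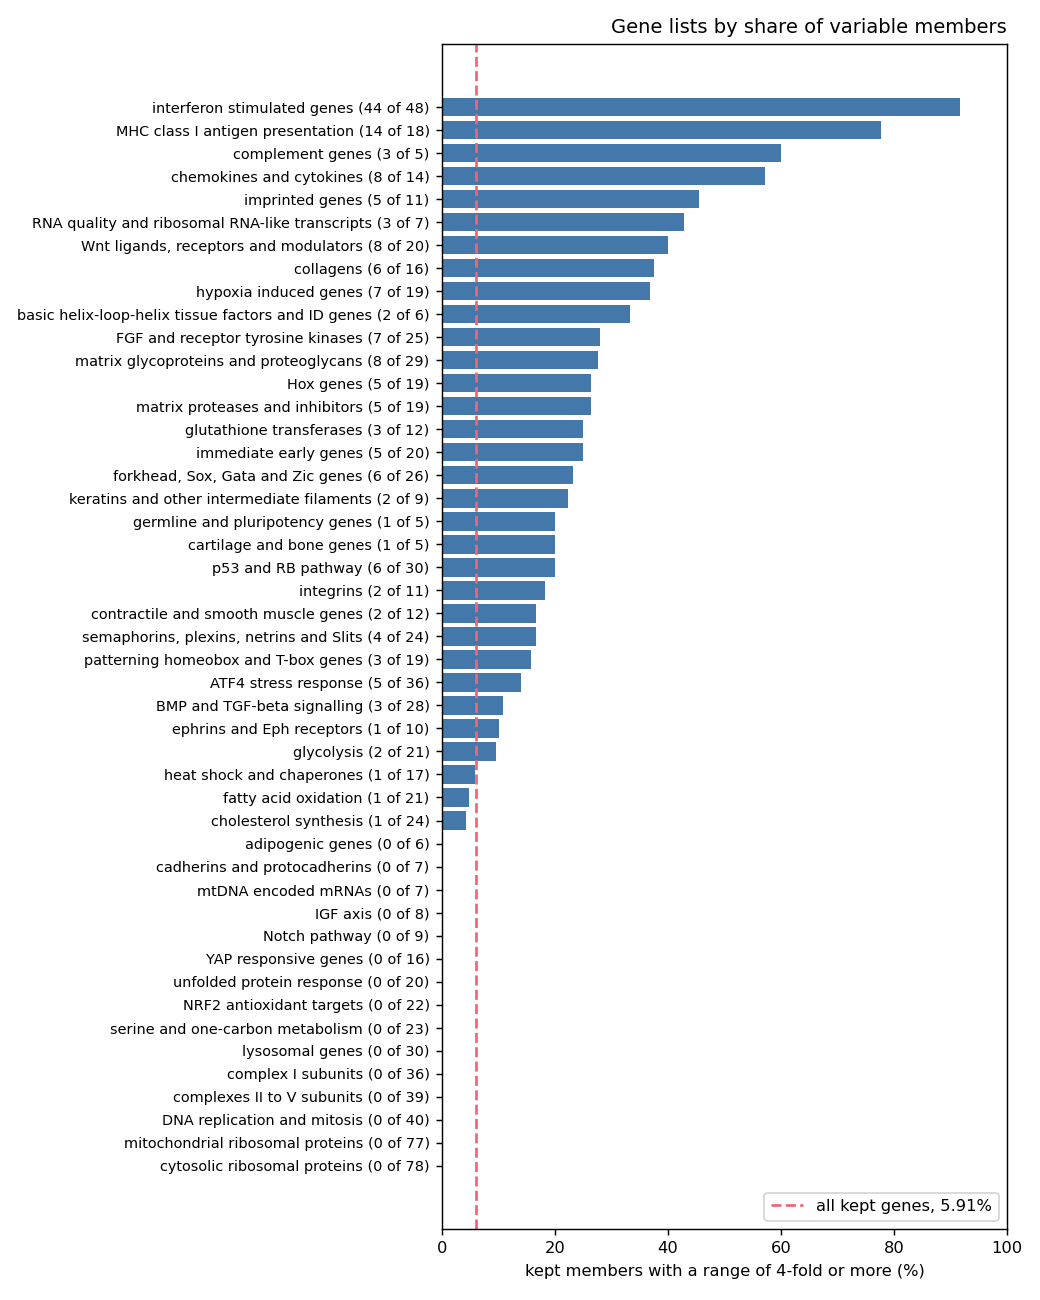
Share of the kept members of each gene list that had a range of at least 4-fold among the 5 low heteroplasmy clones (bars, %, with the count of variable and kept members beside each name), for lists with at least 5 kept members. The dashed line is the 5.91% of all kept genes, and the interferon list reaches 91.7%.

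Interferon-stimulated genes were the programme that varied most. Type I interferon binds a receptor made of Ifnar1 and Ifnar2, whose kinases Jak1 and Tyk2 switch on a transcription factor complex that holds STAT2 and IRF9 and binds a short element in the promoters of antiviral genes. Of 50 listed genes 48 were kept and 44 were variable, beside 5.91% of all kept genes, and the median member spanned 20.6-fold, beside 1.60-fold for all genes. The clones kept nearly the same order from gene to gene: low 5 was lowest and low 1 second lowest in 42 of the 44, the exceptions being Ifit2 and Samhd1, and low 4 was highest in 38 and low 3 in the other 6. Among the other 560 variable genes, low 5 was lowest in 229 and low 1 second lowest in 93 of these. Summed over the list, expression was 3890.4, 9420.5, 13989.7, 20014 and 1832 CPM. The 4 kept genes that stayed within 4-fold were Irf1, Irf9, Ifi27 and Ifitm2. The levels of the members move together, so the 44 genes are not 44 independent observations.

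**Figure D2:**
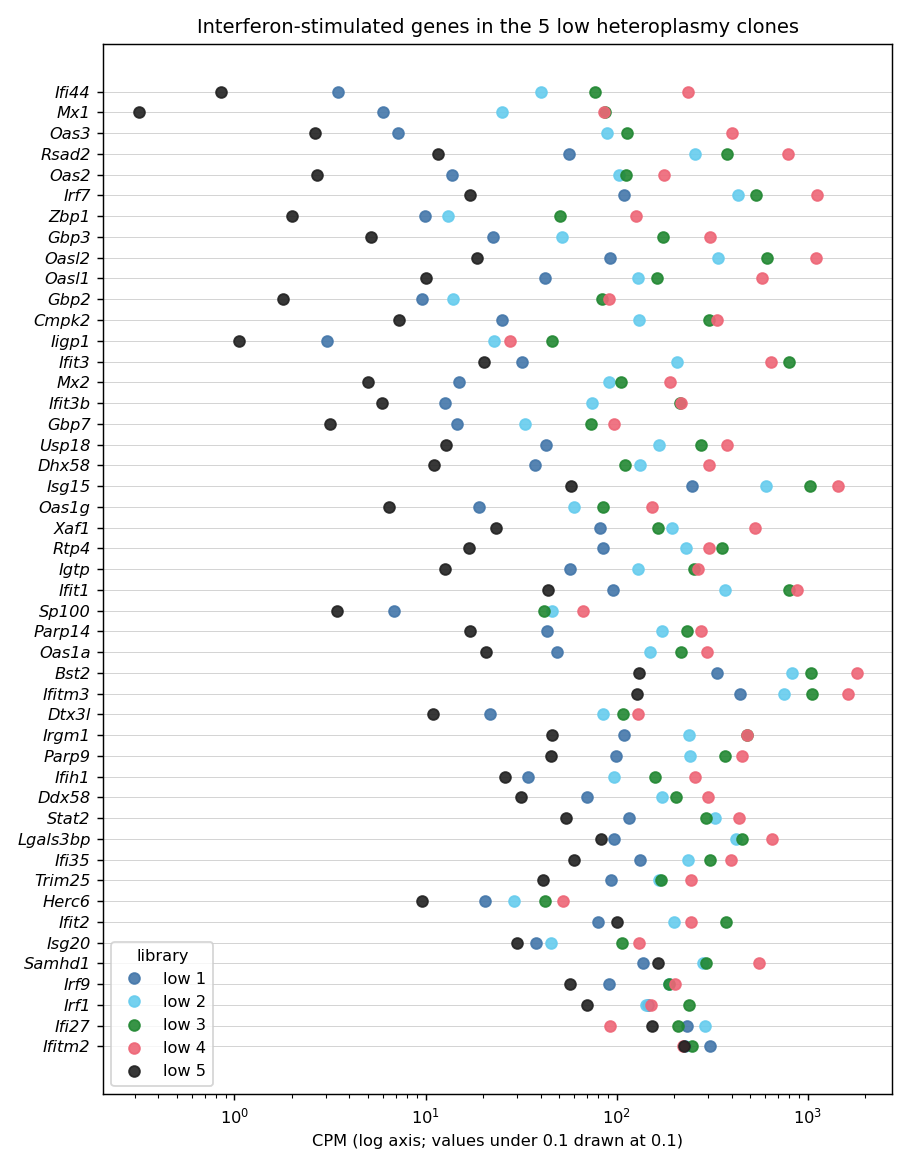
CPM (log axis) of 47 of the 48 kept interferon-stimulated genes in each low heteroplasmy clone, 1 point per clone and 1 row per gene, ordered by range from Ifi44 (279-fold) to Ifitm2. Low 5 (black) is the lowest point in 43 rows and low 4 (pink) the highest in 39.

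The bases upstream of 4 of these genes are printed because the list moved as a block and its members share a known promoter element. The interferon-stimulated response element, searched on both strands as a pair of GAAA blocks with 2 free bases between them, in RefSeq promoters (250 bases before to 50 after a start, GRCm38.p6), was found for 19 of the 36 kept members with a promoter in the table (52.8%) and for 1079 of all 27025 genes with one (3.99%). For MHC class I antigen presentation it was found for 5 of 16 (31.3%), and for immediate early genes for 0 of 16. The AP-1 element TGANTCA was found for 9 of the 36 interferon genes (25%), beside 8.97% of all genes. The 27025 genes were not limited to those kept here. Because the list is one of known interferon-stimulated genes, its share of matches says nothing of these clones. The sequences are the 150 bases before the start of each gene, 5′ to 3′ on its own strand, with matches to the element or its reverse complement in capitals. Isg15 lies at chr4:156200819-156200968 on the minus strand, Ifit1 at chr19:34640739-34640888 on the plus strand, Rsad2 at chr12:26456453-26456602 on the minus strand and Irgm1 at chr11:48871421-48871570 on the minus strand. They are the 4 variable members with the highest median CPM that have a match in this window, with promoters on chromosomes 8 and 18 left out of the choice.
Isg15: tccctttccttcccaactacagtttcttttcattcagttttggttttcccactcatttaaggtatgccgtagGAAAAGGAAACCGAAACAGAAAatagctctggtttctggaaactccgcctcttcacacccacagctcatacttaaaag
Ifit1: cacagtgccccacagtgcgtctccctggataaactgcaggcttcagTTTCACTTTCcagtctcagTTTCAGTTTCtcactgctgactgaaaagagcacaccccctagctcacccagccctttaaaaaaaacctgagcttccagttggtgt
Rsad2: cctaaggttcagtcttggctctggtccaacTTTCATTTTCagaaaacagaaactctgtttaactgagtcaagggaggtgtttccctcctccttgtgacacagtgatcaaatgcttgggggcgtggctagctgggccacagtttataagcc
Irgm1: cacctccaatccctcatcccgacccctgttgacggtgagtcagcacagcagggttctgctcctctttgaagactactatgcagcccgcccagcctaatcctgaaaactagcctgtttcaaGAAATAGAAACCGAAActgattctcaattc

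In Isg15 3 overlapping matches start 78 bases before the gene, in Ifit1 2 separate matches begin 104 bases before it, Rsad2 has 1 match at 120 bases and Irgm1 has 2 overlapping matches at 30 bases. A match is a description of letters and not a shown binding site. The levels of these 4 genes followed the order of the list. Isg15, a ubiquitin-like protein coupled to other proteins during infection, was at 248, 608, 1029.9, 1446 and 57.6 CPM in low 1 to low 5. Ifit1, which binds viral RNA ends, was at 95.6, 371, 800.2, 885 and 43.9 CPM. Rsad2, the antiviral radical SAM enzyme viperin, was at 56.5, 256, 377, 786 and 11.7 CPM, and Irgm1, a GTPase of defence against intracellular pathogens, at 109.8, 241, 479.7, 481 and 46.2 CPM. In each of them low 5 was lowest, low 1 next, low 2 in the middle, and low 3 and low 4 were highest.

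The transcription factors Irf7 and Stat2 were variable, with low 5 and low 1 lowest and low 4 highest, and Irf9 and Irf1 stayed within 4-fold. Irf7 (ENSMUSG00000025498, chromosome 7, 141262706 to 141266481 in GRCm38), the factor that amplifies interferon production, was at 109.5, 434, 535, 1115 and 17.2 CPM in low 1 to low 5, a 64.9-fold range. Its reads may include some of Phrf1, which overlaps it on the other strand at a mean of 117 CPM. Stat2 was at 116, 328, 294, 436 and 54.3 CPM, whereas Irf9, with 91.2, 188, 188, 202 and 56.7 CPM, missed the 4-fold limit. For both, low 5 and low 1 lay below the other 3 clones. Irf1, a factor shared with the interferon gamma response, was at 146, 143, 239.7, 151 and 70.3 CPM: it was again lowest in low 5, but low 3 was highest and low 1, low 2 and low 4 were level.

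The widest ranges of the list were among the effectors. Mx1, a dynamin-like GTPase that blocks influenza-type viruses, was at 6.01, 25.3, 86.7, 86.0 and 0.317 CPM, so that low 5 lay 18.9-fold under the next clone. Ifi44 was at 3.46, 40.0, 77.1, 236 and 0.845 CPM, a 279-fold range. The 2′-5′ oligoadenylate synthetases, which activate RNase L when they meet double-stranded RNA, included Oas3 at 7.22, 89.0, 113, 400.0 and 2.64 CPM, Oas2 at 13.8, 104, 112, 177 and 2.69 CPM and the related Oasl2 at 92.6, 341, 613, 1110.1 and 18.7 CPM. Low 4 was highest for all 3 of them. Bst2, which tethers budding virus to the cell, was at 335, 833, 1049, 1806 and 131 CPM, and Ifitm3, which hinders virus entry, at 444, 753, 1053, 1632 and 127 CPM. Both were abundant in every clone but low 5, where they were at 131 and 127 CPM. Usp18, which removes Isg15 and restrains the receptor, was at 42.7, 167, 278, 379 and 12.8 CPM. Guanylate-binding proteins and the immunity-related GTPases, which respond mainly to interferon gamma, behaved likewise: Gbp2 was at 9.59, 13.9, 83.8, 91.3 and 1.80 CPM and Igtp at 56.8, 129, 254, 266 and 12.6 CPM. Neighbouring genes shared the pattern, and the runs of adjacent kept genes at least 4-fold lower in low 5 than in any other clone were Gbp7, Gbp3 and Gbp2 on chromosome 3, Oasl2 and Oasl1 on chromosome 5, and Igtp with Irgm2 and Slfn8 with Slfn2 on chromosome 11.

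Most genes of sensing and of the interferon receptor differed less than their targets, and their values are given from 2 lists that were chosen after the interferon pattern had been seen. The interferon genes themselves were near the detection floor: Ifnb1 had 3, 9, 27, 45 and 0 counts (0.173, 0.480, 1.22, 1.80 and 0 CPM) and Ifna4 had 1, 2, 24, 50 and 0 counts. Counts this low give only an order, in which low 4 and low 3 were again highest and low 5 had none. The receptor chain Ifnar1 (61.0 to 89.2 CPM) and the kinases Jak1 (114 to 132 CPM) and Tyk2 (38.8 to 54.2 CPM) differed less than 1.5-fold between clones. Ifnar2 was lowest in low 5, at 26.7, 25.3, 32.7, 23.1 and 13.1 CPM. In the list of nucleic acid sensors and their adaptors, Mavs (29.0 to 30.9 CPM), Tbk1 (65.8 to 100.6 CPM), Tmem173, which encodes STING (80.2 to 124.4 CPM), and the sensor Cgas (22.3 to 46.2 CPM) were within 4-fold. Tlr3, a receptor for double-stranded RNA in endosomes, was variable at 31.6, 69.3, 74.5, 189 and 19.7 CPM, as were Adar at 118, 238, 213, 361 and 69.3 CPM and the kinase gene Eif2ak2 at 81.9, 145, 139, 248 and 53.2 CPM, all 3 with low 4 highest and low 5 lowest. The sensors Ifih1 (34.5, 97.0, 159.8, 259 and 26.05 CPM) and Ddx58 (69.8, 174, 205, 302 and 31.7 CPM), both also interferon-stimulated, had the same order.

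The GC content of transcripts was set beside the low values of low 5. Low 5 was lower for transcripts rich in GC: in the 10% of genes with the highest GC content (median 59.6%) its median deviation from the gene mean was -0.26 on the log2 scale, against 0.15 in low 1, 0.12 in low 2, 0.06 in low 3 and -0.06 in low 4, and 11.9% of these genes were variable. The interferon list had a median GC content of 49.4%, close to the 49.7% of all genes, and with the deviation taken out in bins of GC content 43 of its 48 members were variable, low 5 being lowest in 44 of the 48 as before. Without low 5 the list had 37 of 48 variable members (77.1%, beside 4.10% of all genes) and a median range of 6.56-fold. Without low 2 and low 3, the libraries rich in ribosomal RNA-like transcripts, it had 43 of 48. In the 5 high heteroplasmy clones, whose background was 999 of 10308 kept genes (9.69%), 30 of 45 kept members of the list were variable.

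Antigen presentation by MHC class I, the display of peptides from inside the cell, followed the same order. Of 18 kept genes 14 were variable, low 5 was lowest in 17 and low 4 highest in 17, and the summed level was 3878, 5862, 6033, 10019.7 and 1831 CPM. Psmb8, a subunit of the immunoproteasome that cuts the peptides, was at 35.2, 55.4, 119, 205 and 7.40 CPM. Tap1, a subunit of the pump that carries them into the endoplasmic reticulum, was at 46.6, 182, 250.4, 353 and 23.4 CPM and overlaps Psmb9 on the other strand. Nlrc5, the activator of these genes, was at 59.3, 162, 123.04, 242 and 22.5 CPM. Low 5 was lowest and low 4 highest for all 3. B2m, the invariant light chain, was at 1202, 1433, 1460.3, 2097 and 578 CPM, a 3.63-fold range, so it stayed under the limit with the same clones at either end. H2-Q6 (49.7, 157, 51.6, 321 and 13.4 CPM) and H2-Q7 (59.7, 178, 67.2, 347 and 20.6 CPM) had low 4 and low 2 on top, and reads of such near-identical class I genes may be divided between them, so their single values are uncertain. Without low 5 the count fell to 6 of 18.

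Chemokines, which recruit leukocytes, and other cytokines were variable in 8 of 14 kept genes, low 5 being lowest in 9 of the 14. Cxcl10, an interferon-induced attractant of T cells, was at 110.3, 215, 936, 1007 and 35.6 CPM and Ccl5 at 51.3, 37.9, 107, 127 and 9.41 CPM, both with low 5 lowest and low 4 highest. Ccl2, a monocyte attractant, was at 371, 168, 375, 304 and 59.3 CPM and Ccl7, its neighbour in sequence and function, at 11.4, 28.8, 100.4, 21.6 and 6.24 CPM. Here low 1, which was second lowest in the interferon list, was level with low 3 for Ccl2. Cxcl12, the homing factor of stromal cells, had a different order, at 3.81, 5.97, 6.49, 0.881 and 19.8 CPM, with low 5 highest and low 4 lowest. Without low 5 the count of variable chemokine and cytokine genes was 4 of 13. Among complement genes 3 of 5 were variable: C3, the central component, was at 144, 32.7, 84.7, 47.2 and 21.7 CPM, with low 1 highest.

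Collagens and matrix glycoproteins were lowest in low 4 more often than in any other clone. Of 16 kept collagen genes 6 were variable (37.5%), and low 4 was lowest in 10 of the 16 and highest in 0. Of 29 matrix glycoproteins and proteoglycans 8 were variable (27.6%), with low 4 lowest in 13. Low 4 was also the clone most often lowest over all kept genes (24.6%). Among the variable members alone low 4 was lowest in 3 of the 6 collagens and 3 of the 8 glycoproteins, and highest in 2 of the latter. Bgn (ENSMUSG00000031375, chromosome X, 73483602 to 73495933), the gene of the small proteoglycan biglycan, was at 156, 138, 179, 2.20 and 115 CPM, so that low 4 lay 52.4-fold under the next clone while the other 4 stayed within 2-fold. Col3a1, the collagen of extensible tissue, was at 72.2, 162, 119.9, 12.6 and 121 CPM. Tgfbi was at 43.1, 23.8, 45.7, 5.41 and 37.5 CPM and Emilin1, an elastic fibre glycoprotein, at 112, 66.2, 99.9, 15.6 and 95.005 CPM, again with low 4 alone at the bottom. Col6a1 was at 421, 509, 480.3, 113 and 189 CPM and Col6a2 at 244, 274, 228, 81.0 and 119.6 CPM, where low 5 was next to lowest. Adamts2, which trims the ends of fibrillar procollagens, was at 13.8, 26.6, 21.99, 2.40 and 16.5 CPM. Not every matrix gene was lowest in low 4: Fbln1 was at 72.8, 17.5, 53.2, 122 and 68.5 CPM and Thbs1 at 79.4, 397, 344, 403 and 282 CPM, and for both low 4 was the highest clone. Col1a1, by far the most abundant collagen transcript in CPM, varied only 1.71-fold, at 4978, 5609, 5634, 3289 and 3867 CPM. Its partner chain Col1a2 was at 898, 71.6, 388, 208 and 565 CPM, a 12.6-fold range with low 2 lowest and low 1 highest, so the ratio of the 2 chains differed between clones. Nid2, a basement membrane glycoprotein, was at 25.1, 2.40, 0, 0.441 and 43.1 CPM, at least 319-fold higher in low 5 than in low 3, and overlaps Rtraf on the other strand. Without low 4, 3 of 16 collagens and 5 of 29 glycoproteins were variable, beside 4.78% of all genes.

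Of 19 kept matrix proteases and inhibitors 5 were variable (26.3%). Plat, the tissue plasminogen activator, was at 149, 159.7, 228, 85.4 and 31.6 CPM, with low 5 lowest, and Adamts1 at 20.6, 50.2, 53.1, 120.0 and 30.4 CPM, with low 4 highest. Mmp15, a membrane-bound metalloproteinase, was at 1.56, 15.6, 11.8, 3.56 and 10.6 CPM. Of 11 integrins, the matrix receptors, 2 were variable: Itgb7 (19.5, 5.76, 10.6, 73.8 and 14.6 CPM) with low 4 highest and Itga2b (20.1, 11.4, 7.03, 14.1 and 4.28 CPM) with low 5 lowest. Leaving out low 1, low 4 or low 5 left 3 of 19 variable protease genes, and 1 variable integrin, with which the integrins were no longer called variable without low 4. The abundant Itgb1 (754 to 1153 CPM) and Itga5 (122 to 165 CPM) differed less than 2-fold. Of 12 contractile genes Tagln (2.19, 3.09, 6.49, 3.76 and 25.8 CPM, overlapping Pcsk7 on the other strand) and Myl9 (13.0, 2.19, 1.85, 1.80 and 10.3 CPM) were variable, 1 of 11 without low 1 and 0 of 10 without low 5, and in neither case was the list still called variable. Acta2, the smooth muscle actin of activated fibroblasts, was under the filter at 0.115, 0.373, 1.44, 0.481 and 9.83 CPM and, like Tagln, highest in low 5.

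Genes induced by low oxygen were highest in low 1. The factor HIF switches on these genes when its prolyl hydroxylases lack oxygen, and they turn metabolism towards glycolysis. Of 19 kept genes 7 were variable (36.8%), and low 1 was highest in 15 of the 19 and low 3 in the other 4, with a summed level of 3076, 1437, 2464, 1472 and 1438 CPM. For all kept genes the share highest in low 1 was 24.8% and in low 3 16.9%. With libraries scaled by TMM factors low 1 was highest in 13 of the 19 and low 3 in 6. Egln3, a HIF prolyl hydroxylase that is itself a HIF target, was at 85.2, 7.79, 17.8, 6.29 and 14.1 CPM. Bnip3, which marks mitochondria for autophagy, was at 157, 38.9, 129, 36.2 and 23.6 CPM, and Pdk1, which keeps pyruvate out of the mitochondrion, at 121, 30.6, 70.5, 32.2 and 22.1 CPM. In both, low 1 and low 3 lay above the other 3 clones. Adm, the vasodilator adrenomedullin, was at 17.1, 0.907, 5.86, 6.57 and 1.22 CPM and Vegfa, the growth factor of blood vessels, at 93.9, 37.1, 146, 132 and 13.1 CPM, with low 3 and low 4 above low 1 for the latter. Without low 1, 2 of 18 genes of the list were variable. Among the high heteroplasmy clones 1 of 16 kept members was, beside 9.69% of all genes kept there.

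Glycolysis genes followed in a smaller range, with 2 of 21 variable (9.52%, not called a variable list). Low 1 was highest in 10 and low 3 in 9 of the 21, beside 24.8% and 16.9% of all kept genes. With TMM scaling the order of the 2 clones turned, with low 1 highest in 8 and low 3 in 11. Aldoa, the aldolase, was at 2652, 1064, 2089, 1490.0 and 1259 CPM and Ldha, lactate dehydrogenase, at 2041, 1118, 2193, 1481 and 1352 CPM. Slc16a3 (ENSMUSG00000025161, chromosome 11, 120948480 to 120960868), the exporter that carries lactate out of glycolytic cells, had the largest range of any kept gene. It was at 339, 71.0, 117, 61.4 and 0.528 CPM, so low 5 held 10 counts and lay 116-fold under the next clone. The related transporter Slc16a1 was at 131, 116, 139.7, 126 and 87.6 CPM, within 2-fold in all clones. The other variable gene of the list was Pdk1, and without low 1 or without low 5 the count was 1 of 21. In the high clones Slc16a3 ranged 55.8-fold.

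The ATF4 programme, which cells switch on when translation is curbed under amino acid, endoplasmic reticulum or mitochondrial stress, was highest in low 3. Of 36 kept genes 5 were variable (13.9%), low 3 was highest in 24 and low 4 in 9, and low 5 was lowest in 17 and low 2 in 14. Atf4 itself was at 441, 323, 611, 489 and 321 CPM, a 1.90-fold range. Trib3, a feedback inhibitor of the response, was at 106, 45.8, 198, 98.4 and 42.2 CPM and Chac1, which breaks down glutathione, at 119, 56.7, 189, 141 and 30.6 CPM. Ddit4, an inhibitor of mTOR signalling, was at 210.2, 98.4, 345, 105 and 42.7 CPM. All 3 were highest in low 3 and lowest in low 5. Gdf15, a secreted signal of mitochondrial and other stress, was at 33.3, 22.6, 43.3, 26.7 and 0.634 CPM: low 5 held 12 counts and lay 35.7-fold under the next clone. Enzymes of serine synthesis were also highest in low 3, as Phgdh at 398, 317, 847, 516 and 394 CPM and Psat1 at 371, 403, 638, 628 and 599.5 CPM, and the separate list of serine and one-carbon genes was even (0 of 23). Without low 5 the count was 1 of 36 (2.78%, beside 4.10% of all genes), and the list was no longer called variable.

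Immediate early genes, which serum and stress induce within minutes, were lowest in low 5. Of 20 kept genes 5 were variable (25%), low 5 was lowest in 12, and the summed level was 5415, 4433, 3744, 3410.0 and 1674 CPM. Jund was at 941, 645, 436, 342 and 123.1 CPM and Ier2 at 892, 832, 686, 450.2 and 163 CPM. Junb, which overlaps Prdx2 on the other strand, was at 919, 676, 736, 288 and 94.1 CPM. For each of these AP-1 and early response genes low 1 was highest and low 5 lowest. Egr1, a zinc finger factor induced by serum, was at 649, 442, 405, 421 and 191 CPM, a 3.40-fold range. Myc had low 4 highest and low 2 lowest, at 66.8, 47.5, 147, 194 and 81.1 CPM. These genes are rich in GC (median 54.5%, against 49.7% for all), the feature for which low 5 was lower in general, and with GC content taken out 4 of 20 were variable and low 5 was lowest in 11. Without low 5, 2 of 20 were variable. The part of GC content in the low values of low 5 was not tested further. The inhibitors of differentiation Id1 (93.9, 55.9, 55.7, 69.4 and 14.4 CPM) and Id3 (65.8, 109.8, 73.4, 59.6 and 22.03 CPM), targets of BMP signalling, were also lowest in low 5.

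**Figure D3:**
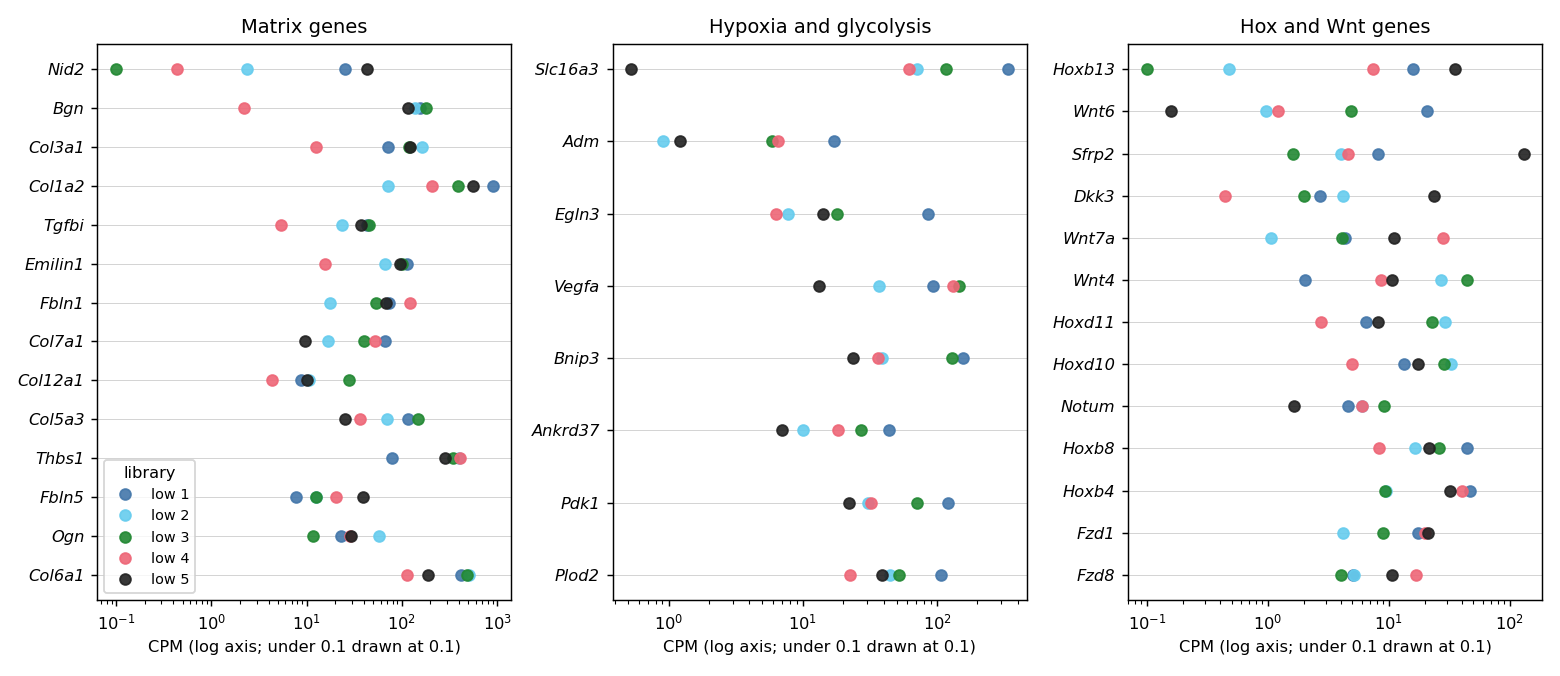
CPM (log axis) of the variable genes of the collagen and matrix glycoprotein lists (left), of the hypoxia and glycolysis lists (middle) and of the Hox and Wnt lists (right) in each low heteroplasmy clone, 1 point per clone, with genes ordered by range and values under 0.1 CPM drawn at 0.1. Low 4 (pink) is the lowest point for Bgn, Col3a1, Tgfbi and Emilin1, low 1 (blue) is the highest for Egln3, Adm and Pdk1, and Slc16a3 is near 0.5 CPM in low 5 alone.

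Genes of positional identity differed by clone. Hox genes are expressed in nested domains along the body axis and the limbs, and fibroblasts keep that code in culture. Of 19 kept Hox genes 5 were variable (26.3%). Hoxb13 (ENSMUSG00000049604, chromosome 11, 96194316 to 96197447), the most posterior gene of its cluster, was at 15.8, 0.480, 0, 7.45 and 35.2 CPM, with 0 counts in low 3, so it was at least 260.3-fold higher in low 5. Hoxb4 was at 46.5, 9.55, 9.24, 40.3 and 31.8 CPM, with low 2 and low 3 below the rest, and Hoxb8 at 44.1, 16.4, 25.9, 8.33 and 21.5 CPM, with low 4 lowest. Hoxd11 and Hoxd10 had another order: Hoxd11 was at 6.52, 29.1, 22.6, 2.72 and 8.08 CPM and Hoxd10 at 13.3, 32.9, 28.8, 4.97 and 17.4 CPM, with low 2 and low 3 above the rest and low 4 lowest. Hoxa10 (70.4, 56.8, 49.3, 41.6 and 57.2 CPM) and Hoxa11 (67.8, 52.4, 58.5, 51.2 and 54.4 CPM) stayed within 2-fold. Without low 4 the count of variable Hox genes was 3 of 19.

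Other patterning factors were switched between near 0 and clear expression. Nkx2-3 (ENSMUSG00000044220, chromosome 19, 43612325 to 43615892), a homeobox factor of gut mesenchyme and spleen, was at 1.33, 38.1, 19.5, 0 and 0 CPM, with 0 counts in low 4 and low 5. Tbx4, a T-box factor of the hind limb and lung, was at 0, 11.5, 0.225, 2.003 and 12.1 CPM, with 0 counts in low 1. Gata4, a zinc finger factor of heart and gonad, was at 5.77, 19.09, 16.7, 0.160 and 7.77 CPM, with 4 counts in low 4. The grouping of clones differed from gene to gene: low 2 was high for all 3, low 3 for Nkx2-3 and Gata4, and low 5 for Tbx4. Foxd1, a factor of kidney stroma, was at 3.93, 18.6, 1.13, 0.881 and 7.87 CPM and Msx1, a homeobox factor of growing limb and face, at 11.9, 8.64, 39.6, 18.5 and 6.50 CPM. Of the list of forkhead, Sox, Gata and Zic genes 6 of 26 were variable, and of the other homeobox and T-box genes 3 of 19. These counts were 3 of 26 for the first list without low 5, and 1 of 17 or 1 of 18 for the other without low 2 or low 3, which was then no longer called variable. Without low 2 and low 3 together they were 1 of 23 (4.35%, beside 3.59% of all genes) and 0 of 17. Neither list was then called variable.

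Wnt genes, secreted signals of growth and patterning with their receptors and inhibitors, were variable in 8 of 20 kept genes (40.0%). Sfrp2, a decoy that binds Wnt ligands, was at 8.08, 4.0003, 1.62, 4.57 and 129.8 CPM, so low 5 lay 16.1-fold above the next clone. Dkk3, of the dickkopf family, was at 2.71, 4.21, 1.98, 0.441 and 23.7 CPM, with low 5 highest again. The ligand Wnt4 was at 2.02, 26.9, 44.2, 8.61 and 10.5 CPM, with low 1 lowest, and Wnt6 at 20.6, 0.960, 4.87, 1.20 and 0.159 CPM, with low 1 highest. Wnt7a was highest in low 4, at 4.33, 1.07, 4.10, 28.1 and 11.04 CPM. The receptors Fzd1 (17.4, 4.16, 8.88, 19.8 and 20.9 CPM) and Fzd8 (5.08, 5.17, 4.01, 16.9 and 10.6 CPM) were variable at lower folds. The 3 ligands named were thus highest in 3 different clones. Of 25 FGF and receptor tyrosine kinase genes 7 were variable, among them Pdgfb, a mitogen of mesenchymal cells, at 26.4, 18.99, 25.6, 7.89 and 1.96 CPM, with low 5 lowest. Without low 4 that count was 4 of 25 and without low 5 2 of 25 (8% beside 4.10% of all genes), so that the list was no longer called variable.

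Guidance molecules, which steer growing axons, vessels and migrating cells, were variable in 4 of 24 kept semaphorin, plexin, netrin and Slit genes, and in 2 of 25 without low 5 (8% beside 4.10% of all genes, no longer a variable list). The repellent Sema3a was highest in low 5, at 6.81, 15.5, 18.5, 22.1 and 38.3 CPM, and the semaphorin receptor Plxnd1 lowest in it, at 15.5, 19.5, 25.1, 6.17 and 2.91 CPM. The Slit receptor Robo1 was at 5.25, 10.7, 3.61, 5.33 and 16.8 CPM, again with low 5 highest. Of 10 ephrins and Eph receptors Ephb2 was variable, at 10.9, 0.320, 13.6, 1.48 and 7.13 CPM. In the BMP and TGF-beta list (3 of 28 variable, not called a variable list) the secreted BMP antagonists Grem1 and Nog differed: Grem1 was at 2.83, 2.40, 20.5, 8.21 and 3.804 CPM, with low 3 highest, and Nog at 6.18, 1.33, 4.64, 8.17 and 6.71 CPM, with low 2 lowest. The third variable gene of that list was Gdf15, described above. Among cartilage and bone genes Sox9, the factor that starts cartilage formation, was at 22.1, 7.89, 15.2, 19.06 and 4.91 CPM, with low 5 lowest. Glutathione transferases, which couple glutathione to foreign compounds, were variable in 3 of 12 kept genes. Gstt1 was at 17.3, 15.5, 36.3, 5.97 and 31.3 CPM, with low 4 lowest, and the membrane-bound Mgst1 at 10.6, 14.8, 1.49, 11.2 and 4.60 CPM, with low 3 lowest. Mgst2 was highest in low 1 and lowest in low 2, at 13.9, 3.20, 12.1, 8.17 and 4.07 CPM, so these genes too had no common order.

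Imprinted genes, expressed from 1 parental allele, were variable in 5 of 11. H19, a noncoding RNA expressed from the maternal allele, was at 4.33, 0.107, 1.26, 2.48 and 18.3 CPM, and low 2 held 2 counts. Grb10, an adaptor that restrains insulin signalling, was at 28.005, 80.8, 63.1, 44.6 and 205 CPM, Peg10, a gene of retrotransposon origin, at 61.1, 173, 252, 79.3 and 108.7 CPM, and Cdkn1c, a cell cycle inhibitor, at 11.5, 1.71, 3.06, 2.96 and 7.87 CPM. Kcnq1ot1, the noncoding RNA that silences the neighbourhood of Cdkn1c, was at 12.6, 5.92, 2.88, 11.3 and 4.33 CPM and overlaps Kcnq1 on the other strand. H19 and Grb10 were highest in low 5 and Cdkn1c in low 1, so the genes had no common order. Gnas (1307 to 1849 CPM), Igf2r (134 to 238 CPM) and Sgce (57.2 to 74.4 CPM) stayed within 2-fold. Without low 1, low 3 or low 5 the count was 2 of 9, 3 of 11 or 2 of 9.

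Growth control genes differed in part. The p53 and RB pathways halt division after damage or in senescence, and immortalized fibroblasts have as a rule lost a part of them. Trp53 was at 538, 435, 356, 618 and 558 CPM and Cdkn2a, which encodes the inhibitors p16 and p19Arf, at 961, 582, 829, 551 and 442 CPM, so both transcripts were abundant in every clone, and reads per gene do not separate the 2 products of Cdkn2a. The p53 target Cdkn1a was at 149, 173, 126, 187 and 66.4 CPM, with low 5 lowest. Variable members (6 of 30, 20%) included the p53 target Eda2r at 1.79, 21.3, 14.3, 1.20 and 3.17 CPM and the D cyclin Ccnd2 at 18.9, 51.7, 133, 27.6 and 56.5 CPM. Ccnd1, which overlaps LTO1 on the other strand, was at 44.1, 102, 143, 141 and 180.5 CPM, with low 1 lowest. Without low 1, 3 of 29 genes of the list were variable. Without low 2 and low 3 together 2 of 29 were (6.90%, beside 3.59% of all genes), and the list was no longer called variable. The 40 genes of DNA replication and mitosis had a median range of 1.44-fold: Pcna was at 891, 705, 769, 719.6 and 753 CPM and Top2a at 638, 656, 653, 513 and 613 CPM.

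The even lists included those of translation and of the respiratory chain. Among 78 cytosolic ribosomal protein genes the median range was 1.53-fold, and low 2 was lowest in 65, with a summed level of 53836, 42799.7, 58339.9, 52855 and 56171 CPM. Mitochondrial ribosomal proteins were lowest in low 2 in 39 of 77. Complex I subunits had a median range of 1.56-fold and were highest in low 1 in 21 of 36, beside 24.8% of all kept genes. With TMM scaling 17 of the 36 were highest in low 1. The subunits of complexes II to V had a median range of 1.54-fold. Lysosomal genes (0 of 30), NRF2 targets (0 of 22), the unfolded protein response (0 of 20) and YAP-responsive genes (0 of 16) had no variable member either. Cholesterol synthesis, with 1 of 24 variable, still had a common order. Low 5 was highest in 18 of 24 (beside 20.8% of all kept genes) and low 4 lowest in 13 (beside 24.6%). Examples were Hmgcs1 at 92.0, 193, 139, 90.5 and 276 CPM and Sqle, the squalene epoxidase, at 120.0, 146, 148, 114 and 197 CPM. Idi1 was the variable gene of this list, and without low 1 or without low 5 the list had none. The most constant genes with a median of at least 50 CPM were Ppm1a (77.4 to 80.6 CPM), Eif4b (668 to 697 CPM) and Mllt1 (115 to 122.96 CPM). Of genes often used as references, Tbp varied 1.18-fold, Actb 1.37-fold, Hprt 1.63-fold and Gapdh 2.12-fold.

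The transcripts encoded by mitochondrial DNA, the molecule that carries the mutation, had a wider range than most nuclear genes of the same complexes. The counted transcripts of the mitochondrial genome summed to 29976, 17598, 10862, 22892 and 23899 CPM, with low 3 lowest and low 1 highest. Of the 13 mRNAs of mitochondrial DNA 6 (mt-Nd3, mt-Nd4l, mt-Co2, mt-Co3, mt-Atp6 and mt-Atp8) were listed at 0 or 1 count in every library, so the sum says nothing of them. None of the 7 kept mRNAs reached 4-fold, so the list is even by the rule, but their median range was 3.33-fold and low 3 was lowest in all 7. The cytochrome oxidase subunit mt-Co1 was at 9672, 5486, 3380.5, 8450.3 and 6876 CPM and the cytochrome b gene mt-Cytb at 5805, 2259, 1592, 2758 and 4016 CPM. The ribosomal RNA mt-Rnr2 was at 2897, 2736, 1637, 3119 and 3767 CPM. Per kb of transcript, mt-Co1 had the highest median level of all kept genes (4451 CPM per kb), followed by mt-Nd1 (3830.3), Lgals1 (3318) and Rplp1 (3079).

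A few genes were set apart in 1 clone, which here means that the clone lay at least 4-fold above or below the next. Such genes numbered 6 high and 4 low in low 1 (0.0587% and 0.0391% of the kept genes), 9 and 12 in low 2 (0.0881% and 0.117%), 1 and 17 in low 3 (0.00978% and 0.166%), 2 and 17 in low 4 (0.0196% and 0.166%), and 4 and 44 in low 5 (0.0391% and 0.431%). Of the 44 genes low in low 5 14 were in the interferon list, and of the 17 low in low 4 5 were in the 3 matrix lists. Leaving out a library changes what the next clone is, so without low 3 44 genes in all were set apart high, against 22, and without low 1 152 were set apart low, against 94.

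In low 1, Iglon5, a neural adhesion molecule, was at 23.8, 0.0533, 1.04, 1.08 and 0.106 CPM and the potassium channel gene Kcnh2 at 29.7, 2.45, 3.25, 2.08 and 2.91 CPM, both high there. Htatip2 was at 0.462, 15.5, 15.4, 17.1 and 27.7 CPM and the lysosomal enzyme gene Aga at 0, 11.4, 6.49, 2.68 and 12.2 CPM, which made low 1 the clone with the lowest value. Of the genes low in low 2, Kalrn, an exchange factor for small GTPases, was at 7.39, 0.213, 6.35, 6.93 and 6.50 CPM and Arhgap24, which switches such GTPases off, at 14.8, 0.160, 4.01, 18.0 and 16.3 CPM. Pir was at 16.7, 0, 3.83, 14.1 and 2.96 CPM, with 0 counts in low 2. For the first of these genes the other 4 clones were nearly level, whereas for the last they were spread. Low 3 had Cck, the peptide hormone cholecystokinin, high at 0.346, 0.853, 27.5, 2.40 and 0.106 CPM, and Mef2c, a muscle and neural transcription factor, low at 14.1, 18.9, 0.225, 10.1 and 13.5 CPM. The atypical protein kinase C gene Prkcz was also low in it, at 6.52, 6.51, 0.225, 5.93 and 9.78 CPM. In low 4, Sdr39u1 (2.08, 0, 2.52, 22.9 and 0.106 CPM, overlapping Khnyn on the other strand) and Sbsn (6.64, 4.27, 7.62, 57.2 and 7.82 CPM) were high. For Sbsn the other 4 clones were within 2-fold of each other. Low 5 had Carmil2, which overlaps Acd on the other strand, high at 2.71, 1.23, 1.62, 1.362 and 27.9 CPM and Plekha4 low at 46.6, 19.8, 34.8, 44.2 and 2.27 CPM. Genes near 0 in several clones also occurred: the ceramide synthase gene Cers4 was at 29.3, 0.0533, 0.0451, 11.8 and 24.6 CPM, with 1 count each in low 2 and low 3, and the small heat shock protein gene Hspb8 at 0, 5.87, 0.0451, 0 and 21.03 CPM. Each of these is 1 value in 1 library. Apart from the runs of interferon-induced genes, no kept gene set apart in a clone lay next to another that was set apart the same way in that clone.

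In low 2 the 9 genes set apart high were Rpph1, Rmrp, Gm23935, Mir6236, Rn7sk, Gm24187, Gm42418, Gm15564 and Lars2, small noncoding RNAs and ribosomal RNA-like transcripts, and Lars2, which holds a ribosomal RNA-like stretch. Gm42418 was at 1164, 40196, 7703, 1490.1 and 1569 CPM, Rn7sk, the RNA that restrains transcription elongation, at 3.003, 107, 19.7, 3.84 and 3.43 CPM, and Rmrp at 0.693, 94.6, 15.01, 2.12 and 0.687 CPM, which overlaps Ccdc107 on the other strand. Low 3 was second highest for all 3. Poly(A) capture, used for these libraries, removes most of such RNAs. Their part in the lower ribosomal protein levels of low 2 was not tested. Short transcripts were higher in low 1 (median deviation from the gene mean 0.17 log2 in the shortest 10%) and lower in low 2 (-0.13), and the longest 10% were higher in low 2 (0.10) and lower in low 3 (-0.12).

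Among the autosomes and the X chromosome 1 deviation lay beyond 0.25 on the log2 scale, taken as the median over a chromosome's genes of log2(CPM + 1) minus the gene median. The X chromosome of low 3 was at 0.40 over 317 kept genes, with quartiles of 0.22 and 0.58. All 95 pairs of an autosome and a clone lay between -0.24 and 0.23. The Y chromosome and mitochondrial DNA, with 5 and 9 kept genes, were not in this count: each was beyond 0.25 in 4 clones, the Y at -0.30, 0.92, -0.57, 0 and 0.40 and mitochondrial DNA at 0.49, -0.26, -0.98, 0 and 0.30. The Y-linked genes of the same clone were the lowest of the 5, with Ddx3y at 55.4, 162, 52.2, 77.8 and 126 CPM, Eif2s3y at 91.7, 189.7, 49.8, 99.7 and 185 CPM and Uty at 26.2, 67.6, 23.8, 32.4 and 43.1 CPM. Low 2 was highest for these. With low 3 left out no autosome and no X chromosome was beyond the limit. With low 2 left out chromosome 13 in low 5 (0.26) and chromosome 18 in low 3 (-0.30) were beyond it too, and with low 4 left out chromosome 1 in low 3 (-0.26).

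**Figure D4:**
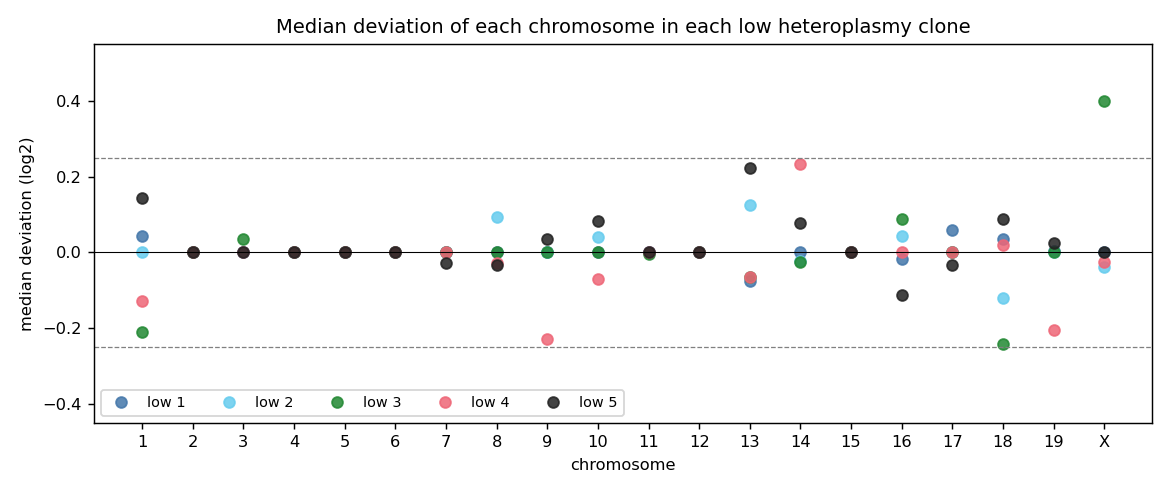
Median deviation of the kept genes of each autosome and of the X chromosome from the gene median over the 5 low heteroplasmy clones (log2 scale), 1 point per clone, with dashed lines at 0.25 and -0.25. The X chromosome of low 3, at 0.40, is the single point beyond the lines, and the Y chromosome and mitochondrial DNA are not drawn.

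The same measure was taken in the 5 high heteroplasmy clones as a description. Of the 604 genes, 475 were also kept there, and 297 of these (62.5%) were variable among the high clones too. Over all 9953 genes kept in both groups, 475 were variable among the low clones and 808 among the high ones. Of those 808, the 297 were 36.8%. Of the lists, MHC class I antigen presentation had 7 of 18 variable there, collagens 10 of 19 and Hox genes 13 of 20, beside 9.69% of all genes. Irf7 spanned 8.77-fold, Bgn 331-fold and Nkx2-3 1.46-fold among the high clones. Low values were raised to 3 counts here too, and the levels of these genes in the high clones are not given. The small range of Nkx2-3 therefore does not show whether it was expressed there.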

How the data were processed

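Poly(A) RNA of each clone was sequenced as paired reads, and the authors deposited a table of raw read counts per gene for the 10 libraries. STAR 2.7.8a, DESeq2 1.36.0 and R 4.2.1 are named, with the mouse build GRCm38 (mm10), per the submitters' processing notes; no source used here gives the counting program, its strand setting or its annotation, so reads of genes that overlap on opposite strands may be shared. A deposited table of normalized values was not used.

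CPM was computed from the count totals of each library with Python 3.11.15, numpy 2.4.6 and pandas 2.3.3, and the kept genes have at least 5 CPM on average over the 5 low clones. Rows without a gene symbol (195 in the table, 11 kept) stayed in the totals. The range of a gene is its highest over its lowest CPM, with the lowest raised to 3 counts. The 95% intervals of list shares are exact binomial ones over the kept members of a list, taken as independent. Members of a list can move together in the same 5 libraries, which these intervals do not cover. Alternatives used TMM factors (edgeR 4.0.16), other filters, folds and scalings, and libraries left out in turn. The procedure was tested on simulated data. Gene positions, transcript lengths and GC content are from GENCODE M21, and promoters from RefSeq.

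The members, lists and naming rule were chosen with earlier results of these data known. Genes were named by fixed rules: the 15 largest ranges, up to 5 genes set apart per clone and direction, up to 6 members with the largest range per variable list, up to 2 per large even list, the 12 highest levels per kb, the 8 smallest spreads, reference genes and cell type markers. Other list members given as context (such as Slc16a1, Atf4, Egr1, Ifit1, Hoxa10, Acta2, Grem1, Nog and Ephb2), the lists of interferon production and of the interferon receptor, and the GC alternative were chosen after the values were seen. A member of the interferon list is not reported by itself here and not drawn, but is counted in the list's totals.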

Additional observations from a re-analysis of the deposited data

Results flagged for a closer look

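Within the 5 low clones, a value was marked where the gap between the highest or lowest clone and its neighbour, divided by the whole range of log2(CPM + 1), was above Dixon's critical value of 0.71 for 5 samples. Among the 150 genes given per clone, 14 had such a clone. Chance marks about 1 in 20 groups, and many of the genes were named because 1 clone was set apart, so the marks are partly fixed by that choice. Low 1 was high for Iglon5 (23.8 CPM) and Kcnh2 (29.7 CPM) and low for Htatip2 (0.462 CPM) and Thbs1 (79.4 CPM). Low 2 was low for Kalrn (0.213 CPM). Low 3 was low for Mef2c and Prkcz (0.225 CPM each). Low 4 was high for Sbsn (57.2 CPM) and low for Bgn (2.20 CPM) and Emilin1 (15.6 CPM), and for Top2a (513 CPM), whose range was only 1.28-fold. Low 5 was high for Carmil2 (27.9 CPM) and low for Gdf15 (0.634 CPM) and Id1 (14.4 CPM).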

How the results depend on the processing

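No paired analysis was possible because each clone gave 1 library and the results come from no test. The count of variable genes (604) was 1292 with a mean of at least 1 CPM, 2370 with no filter, 2543 at 2-fold, 257 at 8-fold and 367 without low 2 and low 3 together, and between 420 and 536 with each library left out in turn. Genes set apart high (22) numbered 75 with a mean of at least 1 CPM, 187 with no filter, 7 with a median of at least 5 CPM, 164 at 2-fold, 6 at 8-fold and 112 without low 2 and low 3, and 26 to 44 with each library left out. Genes set apart low (94) numbered 184, 201, 402 and 21 under the CPM minimum of 1, no filter, 2-fold and 8-fold, 40 on the CPM + 1 scale, and 91 to 152 with each library left out. Looser filters and folds admit more genes by construction, and for the other changes the cause was not tested. The autosomes and X chromosomes beyond 0.25 (1) numbered 2 with totals taken without mitochondrial genes and Gm42418, 0 with no filter, 0 without low 2 and low 3, 2 with GC content taken out, and 0 to 3 with each library left out. The count of variable lists (26) stayed between 21 and 27 under the alternatives run. Of the ranges of named genes under these alternatives, 2925 stayed within 1.5 times of the reported one and on the same side of 4-fold, and 340 did not. The settings that change only the filter or the fold leave the range of a gene as it was. They count among the 2925 by construction, so these 2 numbers do not measure how stable the ranges are. With 1 library per clone, depth limits genes near the floor of 3 counts, and no setting separates a clone from its library. The GC alternative was chosen after seeing the data.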
